A study of Mus musculus with 18 samples.

Results

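H3K27me3 regions found in mdx and mdxTLR4-/- bone marrow-derived macrophages (BMDM) but not in WT BMDM are described here by their size, read density, neighbouring domains, genes and H3K27ac. The regions were selected on the presence and absence of peaks in the H3K27me3 lists of the 3 genotypes. Overlapping peaks (1 bp or more) were joined on chromosomes 1 to 19, and a merged region was kept where it held a peak of mdx and of mdxTLR4-/- and none of WT. Of 36072 merged regions 3474 met this rule, which is 9.63% of them. The absence of a WT peak is what the rule used and is not a result.

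BMDM are macrophages grown from marrow. They came from unstimulated cultures of male WT mice (strain label C57BL6), mdx mice (Dmdmdx-4Cv), which carry a mutation in the dystrophin gene, and mdx mice that also lack the lipopolysaccharide receptor TLR4 (labelled mTLR4, strain Bl6/Bl10). For H3K27me3 each genotype had 2 ChIP libraries, with labelled ages of 12 to 13 weeks for WT, 14 to 15 weeks for mdx and 16 to 17 weeks for mdxTLR4-/-, and 2 input libraries with labelled ages of 6 to 11 weeks. For H3K27ac there were 2 WT, 2 mdx and 1 mdxTLR4-/- library, at labelled ages of 19 to 23 weeks, with a single input of no stated genotype at 18 weeks. Labelled ages go up in steps of 1 week through all 18 samples, replicates included, so they may not be the real ages. As labelled, neither age nor strain can be told apart from genotype. Replicates were merged by the authors before peaks were called, so each genotype has 1 list per mark and no difference between genotypes could be tested. The 95% intervals given here cover counting over regions only and not the spread between mice. Neighbouring regions and near-identical gene copies are not independent of each other.

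H3K27me3 is the trimethylation of lysine 27 of histone H3, placed by the Polycomb repressive complex PRC2 and associated with silent genes. It forms broad domains over developmental genes and gene-poor chromatin, and PRC2 is known to be recruited to CpG islands, the CpG-rich stretches at many transcription starts. H3K27ac is the acetylation of the same residue, found at active promoters and enhancers, and 1 histone tail cannot carry both.

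On chromosomes 1 to 19 the H3K27me3 lists held 28024 peaks and 8315029 reads in WT, 41558 peaks and 10173431 reads in mdx, and 36294 peaks and 7342998 reads in mdxTLR4-/-. The depth of the libraries is unknown. H3K27ac peaks lay over the transcription start of 8 of 10 macrophage markers in WT, 7 in mdx and 7 in mdxTLR4-/-. They lay over none of the 27 marker starts of T cells, B cells, neutrophils, dendritic cells, skeletal muscle, fibroblasts and endothelium in any list. A region of the selected set covered the start of 1 of these 27, Tek.

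The promoters below come from 2 picked groups of covered starts, those with the most H3K27me3 reads and those far from any WT peak. They do not stand for the other covered starts. Each is the 200 bases before the RefSeq start in GRCm38.p6, 5′ to 3′ on the strand of the gene, with CG dinucleotides in capitals.
Dpep1, chr8:123186035-123186234, plus strand: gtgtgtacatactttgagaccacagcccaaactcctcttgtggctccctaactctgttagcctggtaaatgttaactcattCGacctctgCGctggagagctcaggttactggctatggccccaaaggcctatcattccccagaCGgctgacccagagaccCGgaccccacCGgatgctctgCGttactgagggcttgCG
Dner, chr1:84696222-84696421, minus strand: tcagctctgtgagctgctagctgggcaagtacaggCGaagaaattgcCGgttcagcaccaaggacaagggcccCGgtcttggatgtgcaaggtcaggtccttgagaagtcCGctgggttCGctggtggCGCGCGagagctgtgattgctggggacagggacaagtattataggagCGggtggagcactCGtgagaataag
Sytl3, chr17:6658859-6659058, plus strand: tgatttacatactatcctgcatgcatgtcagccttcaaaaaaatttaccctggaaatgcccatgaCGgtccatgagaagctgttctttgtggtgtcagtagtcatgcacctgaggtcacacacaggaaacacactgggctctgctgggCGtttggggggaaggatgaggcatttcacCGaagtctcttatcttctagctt
Slitrk3, chr3:73057067-73057266, minus strand: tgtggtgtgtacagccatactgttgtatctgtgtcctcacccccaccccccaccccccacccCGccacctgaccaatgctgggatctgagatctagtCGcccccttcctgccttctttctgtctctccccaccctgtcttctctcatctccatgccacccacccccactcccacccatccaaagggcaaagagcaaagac
Col11a1, chr3:114030340-114030539, plus strand: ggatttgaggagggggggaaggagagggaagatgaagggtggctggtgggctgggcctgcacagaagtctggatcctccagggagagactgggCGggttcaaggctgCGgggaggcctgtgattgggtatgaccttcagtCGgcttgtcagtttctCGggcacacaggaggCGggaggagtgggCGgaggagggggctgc
These windows held 7 CG dinucleotides at Dpep1, 10 at Dner, 3 at Sytl3, 2 at Slitrk3 and 6 at Col11a1. Dpep1, Dner and Sytl3 were among the regions over a start with the most reads, while Slitrk3 and Col11a1 lay over 1 Mb from a WT peak and were chosen after their values were seen. The annotated starts of Dpep1 and Dner lay under peaks of both lists, and those of Sytl3, Slitrk3 and Col11a1 under the mdxTLR4-/- peak only. At Sytl3 and Col11a1 the mdx peak lay elsewhere in the region. At Slitrk3 the mdx peak ended at 73057800, just short of the annotated start at 73057803. The RefSeq start of Slitrk3 differs from the annotated one, and the window printed for it lay under peaks of both lists. Of the 167 protein-coding genes with a start under a region, 103 (61.7%) had a RefSeq promoter inside it, and promoter sequence was not compared over the set.

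The regions were short and of modest read density. Their median length was 3400 bp (interquartile range 2400 to 4600 bp), while it was 9200 bp for the 17005 regions that had peaks in all 3 genotypes, 2200 bp for the 7698 regions in mdx alone and 2000 bp for the 3006 in mdxTLR4-/- alone. Together they covered 13.2 Mb, while the shared regions covered 261.8 Mb. They took 2.62% of the mdx reads and 2.63% of the mdxTLR4-/- reads in peaks. In mdx the median region held 65 reads (21 to 711) at 25.4 reads per kb of peak, and in mdxTLR4-/- 46 reads (16 to 646) at 20.0 reads per kb. In the shared regions the median densities were 31.2 reads per kb in mdx and 24.7 in mdxTLR4-/-.

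Both genotypes contributed peaks of like size, but both edges rarely coincided. A total of 3214 regions (92.5%) held 1 peak of each list. The median length under peaks was 2600 bp in mdx and 2400 bp in mdxTLR4-/-, and the mdx peaks were the longer in 1798 regions and the mdxTLR4-/- peaks in 1439. A median of 53.8% of a region (52.9 to 54.5) lay under the peaks of both. Start and end were the same in both lists in 121 regions (3.48%), and exactly 1 of the edges was the same in 1029 (29.6%).

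Within regions, read density was lower in mdxTLR4-/- than in mdx by a factor like that in the shared regions. The median ratio of mdxTLR4-/- to mdx density was 0.788 (0.782 to 0.795), and in the shared regions 0.790 (0.788 to 0.792). The ratio was above 1 in 568 regions (16.4%) and in 7.71% of the shared regions. Scaled to 1000000 reads in peaks the median ratio was 1.09, so its direction depends on the scaling. Across the 3474 regions the densities of both genotypes were correlated with a Spearman rho of 0.334, and across the shared regions with a rho of 0.764. The points of both sets share libraries, length and base composition between the lists.

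**Figure D1:**
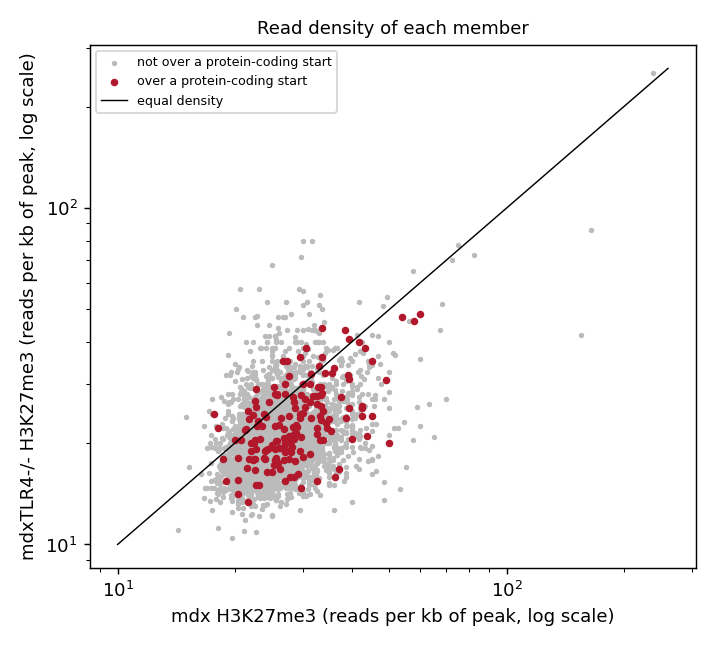
Read density in mdx (x axis) and mdxTLR4-/- (y axis) of each of the 3474 regions, in reads per kb of peak on log scales, with the 162 regions over a protein-coding start in red and the line of equal density in black. Most points lie below the line, and 1 region with over 237 reads per kb in both lists stands apart.

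The densities were also set beside those of the WT list, which cannot decide whether WT could have called these regions. The regions had passed the caller in both other lists, so high shares above a low limit follow largely from their selection. The mdx density of a shared region exceeded its WT density by a median factor of 1.22, which rests only on regions that WT did call. After division by this factor the median region held 53.4 reads at 20.9 reads per kb in mdx. The WT list had no peak under 27 reads, while the lowest was 17 in mdx and 16 in mdxTLR4-/-. On the WT scale 3371 regions (97.0%) reached 27 reads, but only 198 (5.70%) exceeded the WT median of 123 reads. The density of 3398 regions (97.8%) exceeded the 1st percentile of the WT list, 15.5 reads per kb. Short peaks made up less of the WT list than of the mdx list, since 24.4% of WT peaks and 51.6% of mdx peaks were no longer than the median region. This share was not taken for the mdxTLR4-/- list. The part of depth and of the threshold of the caller in the absence of a WT peak was not tested. At the edge of the rule, 35 regions adjoined a WT peak with 0 bp between them, with median densities of 25.0 reads per kb in mdx and 19.8 in mdxTLR4-/-. On the other side of it, 21 shared regions had at most 20% of their length under WT peaks, with median densities of 25.9 in mdx and 18.9 in mdxTLR4-/-.

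The regions lay close to domains that all 3 genotypes shared. The median distance to the nearest shared region was 7600 bp (7000 to 8200), against 12600 bp (12000 to 13200) for regions in mdx alone and 13600 bp (12400 to 15000) for those in mdxTLR4-/- alone. Within 5 kb of a shared region lay 1467 regions, or 42.2% (40.6 to 43.9), compared with 33.3% (32.2 to 34.3) and 30.4% (28.8 to 32.1) in the single-genotype sets. These intervals do not overlap, but they count regions as independent. Distances ran from edge to edge, and the regions were longer, with a median of 3400 bp against 2200 and 2000 bp. The part of length in these shares was not tested. A shared region lay within 5 kb on both sides of 333 regions (9.59%) and on 1 side of 1134 (32.6%). The nearest shared region of those within 5 kb had a median length of 8800 bp, near the 9200 bp of all shared regions. Distance to the nearest WT peak, which the rule used in part, was 5400 bp at the median, and 550 regions lay within 1 kb of one. At the other end 227 regions (6.53%) lay over 100 kb from any WT peak and 44 (1.27%) over 500 kb. Regions were also spaced from each other, with a median of 73200 bp to the next, and 642 (18.5%) had another within 10 kb.

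**Figure D2:**
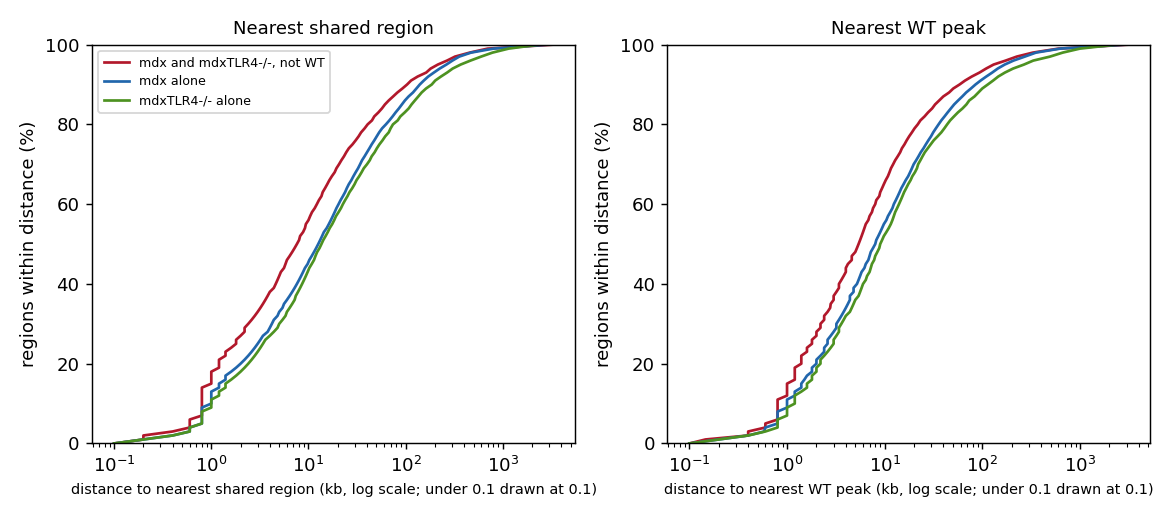
Share of regions (y axis, %) within a distance (x axis, kb, log scale) of the nearest shared region (left) and WT peak (right), for the 3474 regions in mdx and mdxTLR4-/- but not WT and for those in mdx alone and mdxTLR4-/- alone. The red curve lies to the left of the others, with medians of 7.6 kb against 12.6 and 13.6 kb in the left panel.

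Regions per chromosome followed the shared domains. There were 1.41 regions per Mb over chromosomes 1 to 19, from 1.13 on chromosome 3 to 2.02 on chromosome 9. Across the 19 chromosomes the number per Mb and that of shared regions were correlated (Pearson r = 0.76, Spearman rho = 0.68). This is a description, and the part of gene and base content of a chromosome was not tested. In windows of 5 Mb the median was 6 regions and 445 of 503 windows held at least 1. The richest window, on chromosome 13 from 95000001 to 100000000, held 31 regions beside 124 shared ones.

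**Figure D3:**
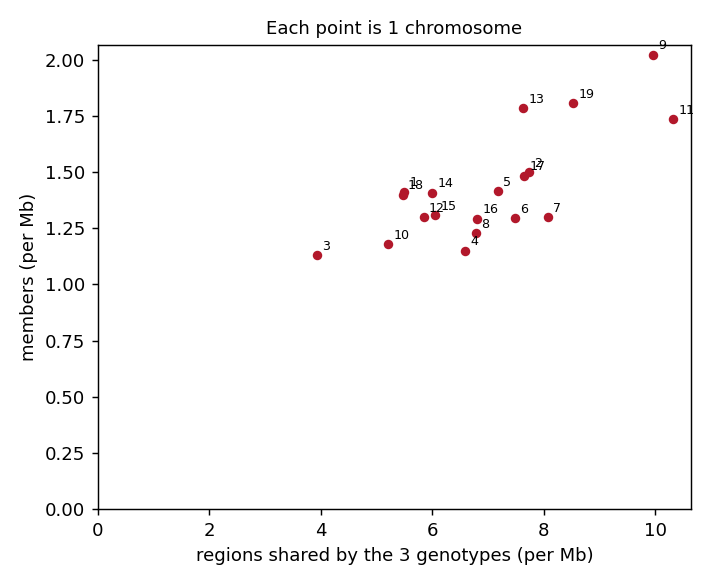
Regions in mdx and mdxTLR4-/- but not WT per Mb (y axis) against regions shared by the 3 genotypes per Mb (x axis), 1 labelled point per chromosome. Chromosome 3 is lowest in both and chromosome 9 highest in the y direction, at 2.02 per Mb.

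Most regions lay between genes or in introns. The midpoint was between genes in 53.5% (51.8 to 55.1), in an intron in 40.4% and in an exon in 6.10% (5.35 to 6.95). Protein-coding gene bodies held 37.5% of the midpoints and 40.3% of the bases of these chromosomes, and exons 4.96% of the bases. A protein-coding transcription start was covered by 162 regions, or 4.66% (4.01 to 5.42), while among all merged regions the share was 13.3%. The shares were 2.16% (1.85 to 2.51) in mdx alone, 1.90% (1.47 to 2.45) in mdxTLR4-/- alone and 24.9% (24.2 to 25.5) in the shared regions. Per Mb of region there were 12.7 starts, against 9.58, 9.12 and 19.7 in the same order and 8.45 for the chromosomes as a whole, so that the sets lay closer per Mb than per region. Of the 167 starts covered, 114 lay under peaks of both lists, 22 under an mdx peak only and 31 under an mdxTLR4-/- peak only.

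Starts were commoner in the regions that stood alone. Of the 1701 regions within 5 kb of a WT peak, 45 covered a protein-coding start, which is 2.65% (1.98 to 3.52). Between 100 and 500 kb it was 34 of 183 regions, or 18.6% (13.6 to 24.8), and beyond 500 kb 14 of 44, or 31.8% (20.0 to 46.6). Regions in mdx alone reached 4.39% (2.99 to 6.39) and 7.22% (3.54 to 14.2) at the same distances, and those in mdxTLR4-/- alone 4.55% (2.56 to 7.96) and 10.3% (5.54 to 18.5). Within 5 kb these 2 sets had 1.99% (1.55 to 2.54) and 0.922% (0.501 to 1.69). The share was thus higher beyond 500 kb than within 5 kb in all 3 sets. Per Mb of region beyond 500 kb there were 114 starts, against 34.4 in mdx alone and 56.7 in mdxTLR4-/- alone. At 100 to 500 kb and beyond, the intervals of the regions found in both genotypes do not overlap those of either single-genotype set. These intervals count regions as independent, while gene copies such as Gm3500 and Gm8237 are among those beyond 500 kb. Distance to a WT peak was also used in part by the rule. Counting only starts under peaks of both lists, a choice made after the values were seen, the share was 1.65% (1.14 to 2.37) within 5 kb, 15.8% (11.3 to 21.8) from 100 to 500 kb and 22.7% (12.8 to 37.0) beyond 500 kb. The last interval overlaps those of both single-genotype sets. CpG content also rose with distance in the regions found in both genotypes, while it fell in the others. The median was 9.81 CpG per kb (9.64 to 10.0) within 5 kb of a WT peak and 18.2 (11.4 to 27.5) beyond 500 kb, while it went from 9.44 (9.23 to 9.62) to 7.50 (5.71 to 8.33) in mdx alone and from 10.0 to 6.67 (5.00 to 8.64) in mdxTLR4-/- alone. Over all regions the median was 10.0 CpG per kb, against 11.6 in shared regions and 8.51 in the genome. Median GC content was 46.0%, against 45.5% in mdx alone, 46.8% in mdxTLR4-/- alone, 46.7% in shared regions and 41.9% in the genome. Soft-masked repeats made up a median of 23.3% of a region, with 33.5% in the genome. In the same order the other sets had 21.5%, 25.8% and 22.9%, so neither value was particular to these regions. At least 75% of the length was repeat in 58 regions.

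**Figure D4:**
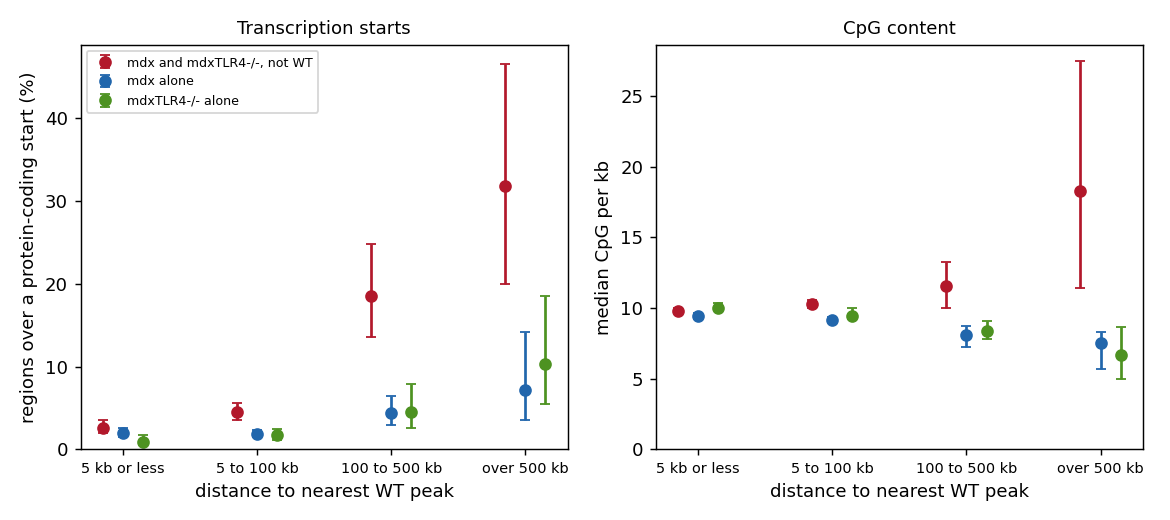
Share of regions over a protein-coding start (left, %, with Wilson 95% intervals) and median CpG per kb (right, with 95% intervals of the median) by distance to the nearest WT peak, for the 3 sets without a WT peak. Regions found in both mdx and mdxTLR4-/- rise from 2.65% to 31.8% and from 9.81 to 18.2 CpG per kb.

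The region farthest from WT, by 3140600 bp, covered the start of Slitrk3, which encodes a synaptic adhesion protein, on chromosome 3 from 73055801 to 73058600. It held 44 reads in mdx and 40 in mdxTLR4-/-, at 22.0 and 20.0 reads per kb. Only the mdxTLR4-/- peak reached the annotated start, and the mdx peak ended just short of it. Lrfn5, another synaptic adhesion gene, lay under 75 and 77 reads in a region 2290800 bp from WT. The region inside the gene of the netrin receptor Unc5d began 36 bp from its start and had 72.0 CpG per kb, with 51 and 37 reads. At Lrp1b, which encodes a large lipoprotein receptor-related protein, the region lay 224 bp from the start with 42 and 30 reads. These 4 regions were 1000 to 2800 bp long, with 32.9 to 72.0 CpG per kb. Of the 8 farthest, the regions at Gm3500 and Gm8237, both predicted genes on chromosome 14 where copies are many, and the intergenic ones near Ccng1 and Gm14434 complete the list. The counts at such copies are uncertain, since reads may map to more than 1 of them.

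Over starts, the region with the most reads lay at Dpep1, the gene of a membrane dipeptidase that cleaves leukotriene D4, on chromosome 8 from 123177001 to 123188800. It held 458 reads in mdx and 429 in mdxTLR4-/-, at 43.2 and 38.3 reads per kb. At Dner, which encodes a Notch ligand, there were 431 and 346 reads. Both lists were high at these loci. Podnl1 (200 and 505 reads) and Zfp37 (309 and 53 reads) differed most between the lists in this group of 12, and in both 1 list called a far longer peak than the other. At Podnl1 the mdxTLR4-/- peak spanned 18600 bp and held the start, and the mdx peak of 200 reads lay inside it. The others of the 12 were Sytl3, Grifin, Smok3c, Ctf2, Gm9507 with Gm2696, Plekhg5, Cyp2t4 and Frmpd2, with 151 to 252 reads in mdx and 100 to 334 in mdxTLR4-/-. The starts of Sytl3 and Ctf2 were under the mdxTLR4-/- peak only and those of Zfp37 and Frmpd2 under the mdx peak only. The region at Sytl3 lay 600 bp from a WT peak and that at Ctf2 63800 bp.

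The longest region, of 19800 bp, lay in an intron of Hrh1, the histamine H1 receptor, on chromosome 6 from 114466201 to 114486000. It held 640 reads in mdx and 516 in mdxTLR4-/-. The region with the most reads, 711 in mdx and 646 in mdxTLR4-/-, lay in Dnah14, a dynein heavy chain gene, on chromosome 1 from 181734801 to 181749600. The other long ones lay at Podnl1, Ctf2, Sytl3, Gm41505, Gm13243 and upstream of Ago2. The densest was of another kind. On chromosome 3 from 5860201 to 5861000, an intergenic stretch of 800 bp held 190 reads in mdx and 201 in mdxTLR4-/-, at 237.5 and 251.2 reads per kb, and H3K27ac peaks of all 3 lists touched it. Next came 1200 bp in Kpna1, an importin gene, with 165.0 and 85.8 reads per kb, also touched by WT H3K27ac. The rest of the 8 densest lay in Cop1, Rbm20 and Gm34667 and between genes near Nnat, Csmd3 and Rps24, and 5 of the 8 were no longer than 800 bp.

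H3K27ac was rare in the regions, in every genotype. A WT H3K27ac peak touched 16 regions, or 0.461% (0.284 to 0.747), where it touched 1.29% of all merged regions and 2.13% (1.92 to 2.36) of the shared ones. The single-genotype sets lay on either side of it, with 0.377% (0.262 to 0.541) in mdx alone and 0.699% (0.457 to 1.07) in mdxTLR4-/- alone. An mdx peak also touched 16, with 1.03% of all merged regions, and an mdxTLR4-/- peak 14, or 0.403%, with 1.00%. The shared regions are longer, and by bases the gap was smaller, with 0.114% of the bases in WT H3K27ac peaks against 0.132% in shared regions and 1.29% of the chromosomes. In all 40 regions were touched by a peak of any list, 12 by WT only, 12 by mdx only, 11 by mdxTLR4-/- only and 1 by all 3. The WT peak with the most reads, 99, lay in the region at Gm13243 and Vmn2r-ps15 on chromosome 4, where mdx H3K27ac held 67 reads and mdxTLR4-/- had no peak. At Actrt3, an actin-related gene of the testis, WT H3K27ac held 26 reads and the other lists had no peak in the region. Every other WT peak in a region held 11 reads or fewer.

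**Figure D5:**
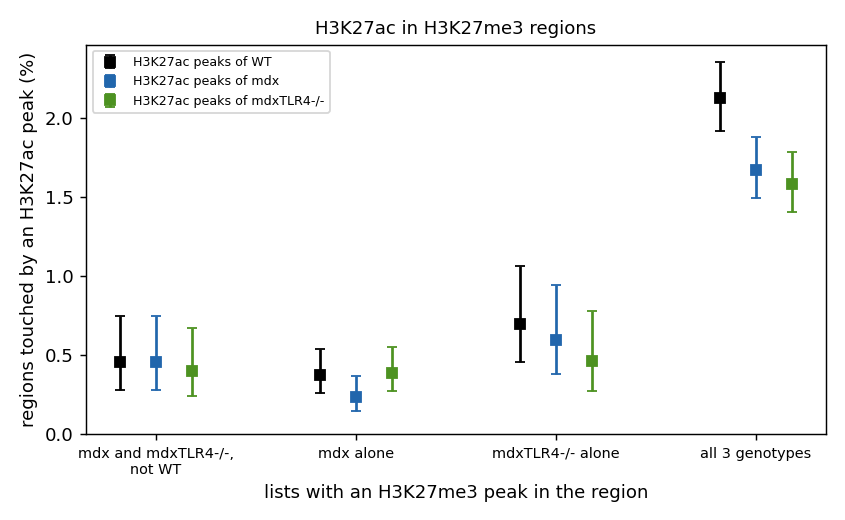
Share of H3K27me3 regions touched by an H3K27ac peak (y axis, %, with Wilson 95% intervals) in 4 sets of regions, for the H3K27ac peaks of each genotype. The regions in mdx and mdxTLR4-/- but not WT sit at 0.461%, 0.461% and 0.403%, below the shared regions.

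Few genes with a start under a region had H3K27ac there, as in the other sets of regions. Of the 167 protein-coding starts covered, an H3K27ac peak lay within 1 kb of 4 in WT, which is 2.40% (0.935 to 6.00), of 1 in mdx and of 2 in mdxTLR4-/-, while it did so at 28.7% of all protein-coding starts in WT. In WT the share was 0.581% of the starts under regions in mdx alone, 3.39% of those in mdxTLR4-/- alone and 1.28% of those under shared regions. The 4 in WT were Actrt3, Slc9a5, Gm4767 and Cdca7l, and the 2 in mdxTLR4-/- were Grk3 and Prdm1. Prdm1, the repressor Blimp-1, lay under 70 H3K27me3 reads in mdx and 52 in mdxTLR4-/-. Genes that held the midpoint of a region had H3K27ac at the start in 8.13% (6.57 to 10.0) in WT, against 9.11% (7.80 to 10.6) and 9.56% (7.75 to 11.7) in the single-genotype sets and 5.22% (4.58 to 5.94) of the genes that held a shared region.

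Gene lists were read against 0.803% of all protein-coding genes with a region over the start and 6.15% with a region between 5 kb upstream and 1 kb past the end. None of the 84 interferon-stimulated genes, 36 chemokine ligands, 24 Toll-like receptors and adaptors or 36 macrophage polarization markers in the lists had a region over the start. The lists were not complete. Ccl21a, a chemokine ligand not counted in them, had one with 116 reads in mdx and 146 in mdxTLR4-/-, its start under the mdxTLR4-/- peak only. The interferon-induced gene Ch25h, also not counted, had one with 43 and 36 reads. Within the window there were 4 interferon-stimulated genes (4.76%), 2 chemokine ligands (5.56%), 0 Toll-like receptor genes and 4 polarization markers (11.1%). These shares are near the background or rest on a few genes. Cxcl16, a chemokine that is also a scavenger receptor, had a region 17 bp from its start with 100 reads in mdx and 104 in mdxTLR4-/-, and Ccl1 one 2911 bp away. Il1r2, the decoy receptor of interleukin-1, had one 79 bp from its start with 86 and 72 reads. Marco, a scavenger receptor, held one in its body with 146 and 65 reads.

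Collagens stood higher per gene, with a region in the window of 8 of 42 genes (19.0%) and over the start of 3, Col8a1, Col25a1 and Col11a1. Their windows were longer, with a median of 117 kb against 23.6 kb for all protein-coding genes, and the part of length was not tested. Col11a1, of a fibrillar collagen of cartilage, lay 1550200 bp from a WT peak, with 30 reads in mdx and 32 in mdxTLR4-/-, and its start was under the mdxTLR4-/- peak only. Col8a1 held 68 and 62 reads and Col25a1, whose start was under the mdx peak only, 68 and 57. Muscle lineage and contraction genes reached 9 of 48 (18.8%) and blood lineage transcription factors 8 of 44 (18.2%), with none over a start. Among the lineage factors Ikzf3, Erg and Pax5 were the 3 with the most reads in both lists together, and the Spib region lay 671 bp from its start. Mymx, a muscle fusion gene, and Prdm1 were not counted in these gene lists, and both had a region over the start. Mymx held 53 reads in mdx and 43 in mdxTLR4-/-, and Prdm1 70 and 52. A region of Ikzf3 held 106 and 76 reads in an area where a WT peak lay 800 bp away, and that of Erg adjoined one. These lists were also rich in shared regions, which touched 78.6% of the collagens, 64.6% of the muscle genes and 68.2% of the lineage factors, with 38.1% of all protein-coding genes. Hox genes and Wnt ligands, all of which had a shared region in the window, had no region of the selected kind.

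The study put together gene lists for inflammatory and fibrotic processes, used here as far as their names were found in the annotation. A region touched 2 of 51 pro-inflammatory genes (3.92%), 3 of 52 anti-inflammatory genes (5.77%) and 6 of 59 pro-fibrotic genes (10.2%), with 6.15% of all protein-coding genes. The pro-fibrotic genes had a median window of 45.4 kb against 23.6 kb for all protein-coding genes. Shared regions touched 69.5% of them, with 38.1% of all protein-coding genes. Axl, a receptor tyrosine kinase for the clearance of dying cells, was the pro-inflammatory gene with a region over its start, with 80 reads in mdx and 73 in mdxTLR4-/-. Ap1s3, a subunit of a clathrin adaptor, was the anti-inflammatory one, with 78 and 47 reads. No pro-fibrotic gene had one, and the regions with the most reads in that list lay in the windows of Fgfr2, Fgfr1 and Egfr. None was near a start. The Fgfr2 region lay 2752150 bp from the start of the gene as annotated, that of Fgfr1 56147 bp and that of Egfr 131998 bp.

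Among the other families, a region touched the window of 12 of 92 genes named Kcn (13.0%), which are potassium channels of several kinds and associated proteins. A region also touched 5 of 50 interleukin and cytokine receptors (10.0%) and 30 of 372 solute carriers (8.06%). Over a start there were 4 solute carriers (1.08%), Slc12a3, Slc24a2, Slc9a5 and Slc15a2, of which Slc12a3, the thiazide-sensitive cotransporter of the kidney, held 147 reads in mdx and 106 in mdxTLR4-/-, with the start under the mdx peak only. Olfactory receptor genes had a region in 23 of 1128 windows (2.04%) and vomeronasal receptors in 3 of 329 (0.912%), and both families were also poor in shared regions, at 8.51% and 1.22%. Zinc finger genes reached 17 of 388 (4.38%). The regulators of H3K27 marks, the C-type lectins and the Schlafen genes had none in 23, 30 and 9 genes. Windows differed in length between lists, with medians of 117 kb for collagens, 38.2 kb for Kcn genes and 12 kb for olfactory receptors. The median for all protein-coding genes was 23.6 kb, and the part of length in these shares was not tested.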

How the data were processed

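ChIP-seq of BMDM covered H3K27me3 and H3K27ac in WT, mdx and mdxTLR4-/- mice (18 samples). Per the methods and the submitters' processing notes, the authors trimmed reads (cutadapt 1.15), mapped them to mm10 (Bowtie2 2.3.4), merged replicates and called peaks with SICER 2.0. The removal of duplicate reads is not given in the sources used here. The deposited values are whole-number read counts per peak, with no scaling for depth or length and no subtraction of input. Peak starts lay on a grid of 200 bp, ends were inclusive, and peaks of 1 list lay at least 800 bp apart.

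Lists were merged, classified and annotated in Python 3.11.15 with GENCODE M21 and the GRCm38.p6 genome, whose chromosome lengths no peak exceeded. Density is reads divided by the length of the peaks of that genotype. Shares have Wilson and medians order-statistic 95% intervals, which cover counting over regions. No test between genotypes was run, since each has 1 list. The members and gene lists were chosen with earlier results of these data known. Regions named were the 8 longest, the 8 densest in the list where density was lower, the 8 farthest from WT, the 12 over a protein-coding start with the most reads, the 8 with the strongest WT H3K27ac, and members of gene lists. Slitrk3 and Col11a1 among the sequences, and Prdm1 and the other acetylated starts, were named after their values were seen. The procedure was tested on 3990 simulated regions, of which 3990 were recovered with position and pattern. Each list had at most 1 peak in a simulated region and 1 peak spanned it. Staggered or multiple peaks were not simulated. Alternatives were a minimum peak length, a higher density, equal numbers of peaks, wider merging, a coverage minimum, distance from WT, other starts, stronger H3K27ac peaks and 2 scalings.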

Additional observations from a re-analysis of the deposited data

How the results depend on the processing

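No paired analysis was possible because the authors merged replicates before calling peaks, and leaving out a replicate was not possible for the same reason. The 3474 regions became 1992 with peaks of at least 2 kb, 1176 with equal numbers of peaks per list and 1773 with no WT peak within 5 kb. The share within 5 kb of a shared region, 42.2%, became 38.0% with peaks of at least 2 kb, 29.1% at a density of at least 1.5 times the 1st percentile, 36.1% with equal numbers of peaks and 6.09% with no WT peak within 5 kb, the last by construction, since shared regions hold WT peaks. The share over a protein-coding start, 4.66%, became 6.92% at the higher density, 7.65% with equal numbers, 6.60% with no WT peak within 5 kb, 6.79% for starts within 1 kb, 10.6% for starts of all genes and, as a choice added after the data were seen, 3.20% for starts under peaks of both lists. The share touched by WT H3K27ac, 0.461%, fell to 0.0864% with H3K27ac peaks of at least 10 reads. The density ratio of mdxTLR4-/- to mdx, 0.788, was 0.771 with peaks of at least 2 kb, 0.803 at the higher density, 0.778 where both cover 50% of a region and 0.998 relative to shared regions, and it reversed to 1.09 when scaled to 1000000 reads in peaks. The cause of the other shifts was not tested. The regions in mdx alone and in mdxTLR4-/- alone were not set beside these alternatives. Input and library depth were not used here, which limits what the absence of a WT peak can show.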

Other observations

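On the X chromosome, which was left out of the regions, 118 H3K27me3 peaks were called for WT, with 221 for mdx and 193 for mdxTLR4-/-.

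Among the regions over a start that lay over 100 kb from any WT peak were several CpG-rich ones chosen after their values were seen. Xkr4 had 74.6 CpG per kb, with 68 reads in mdx and 51 in mdxTLR4-/-, the start being under the mdxTLR4-/- peak only. Magi2, a scaffold protein gene, had 47.7 CpG per kb with 52 and 58 reads. Ch25h, which makes 25-hydroxycholesterol and is known as an interferon-induced gene of macrophages, had 44.0 CpG per kb with 43 and 36 reads. The imprinted pair Peg3 and Usp29 shared a region of 38.8 CpG per kb with 85 and 47 reads.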
